A study of Mus musculus with 23 samples.

Results

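The Cyp4a genes of the mouse encode cytochrome P450 enzymes of the liver and kidney. The 6 members described here, Cyp4a10, Cyp4a14, Cyp4a31, Cyp4a32, Cyp4a12a and Cyp4a12b, were taken by gene name. All 6 were found among the 24434 genes listed for males and the 24940 listed for females. The measurements are read counts per gene from bulk RNA-seq of the livers of 23 mice. There were 5 control males (replicates 1, 2, 3, 4 and 6), 6 LKO males, 6 control females and 6 LKO females. Controls carried the genotype B100-Control and the others B100-LKO, so the B100 element, which the labels do not explain, was shared by all groups. LKO is taken as the ablation of hepatic CPT1a that the title of the series names; the labels do not give the Cre driver, the deleted exons or the ages. All mice had received the WD diet for 16 weeks and were in the fed state at necropsy. Labels do not say whether the animals shared litters, cages or batches, so p-values measure the spread between these livers only.

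CYP4A enzymes add a hydroxyl group to the end of a fatty acid chain, the omega position, using electrons from P450 reductase (Por). Alcohol and aldehyde dehydrogenases then turn the product into a dicarboxylic acid, which peroxisomes shorten. In mouse liver, Cyp4a10 and Cyp4a14 are classical targets of the fatty acid sensor PPAR-alpha, and Cyp4a12a is known as a male-biased gene. CPT1a, the enzyme removed in LKO livers, commits long-chain fatty acids to oxidation in mitochondria.

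The members are close copies of each other, and the copies that are hardest to tell apart are shown first because this limits how counts can be assigned to single genes. They lie together on chromosome 4, within 322557 bases from 115156243 to 115478799 in the coordinates of the deposited tables (build mm39 in the submitters' processing notes). In order, Cyp4a12a spans 115156243 to 115190012, Cyp4a12b 115268821 to 115296231, Cyp4a14 115343397 to 115353339, Cyp4a10 115375461 to 115390846, Cyp4a31 115420846 to 115436212 and Cyp4a32 115458166 to 115478799. Cyp4a14 is on the minus strand and the other members are on the plus strand. All 6 are annotated as protein-coding. Coding sequences were read from GENCODE M21 transcripts, annotated on GRCm38. The coding sequence has 1530 bases in Cyp4a10, Cyp4a31 and Cyp4a32, 1524 in Cyp4a14 and 1527 in Cyp4a12a and Cyp4a12b. The following 60 coding bases, which begin at coding base 826 of Cyp4a10, are printed 5′ to 3′, with capitals at the bases that differ from Cyp4a10.
Cyp4a10: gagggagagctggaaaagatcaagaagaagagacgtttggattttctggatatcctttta
Cyp4a31: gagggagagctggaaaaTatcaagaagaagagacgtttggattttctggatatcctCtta
Cyp4a32: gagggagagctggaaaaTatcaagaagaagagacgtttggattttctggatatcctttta
Cyp4a14: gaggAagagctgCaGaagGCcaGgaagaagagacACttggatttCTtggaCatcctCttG
Cyp4a12a: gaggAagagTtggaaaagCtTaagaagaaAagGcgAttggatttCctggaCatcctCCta
Cyp4a12b: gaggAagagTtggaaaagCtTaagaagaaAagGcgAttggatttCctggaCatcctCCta

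In that window Cyp4a32 differed from Cyp4a10 at 1 base, Cyp4a31 at 2, both Cyp4a12 genes at 11 and Cyp4a14 at 13. Cyp4a12a and Cyp4a12b were identical there. Over the whole coding sequence, Cyp4a12a and Cyp4a12b were 98.5% identical, Cyp4a10 and Cyp4a32 97.2%, Cyp4a10 and Cyp4a31 96.6%, and Cyp4a31 and Cyp4a32 96.0%. Cyp4a14 was 75.0 to 76.0% identical to every other member. The longest run without a difference was 342 bases between Cyp4a12a and Cyp4a12b and 186 bases between Cyp4a10 and Cyp4a31, against 23 bases between Cyp4a10 and Cyp4a14. Of all stretches of 100 coding bases, 41.5% were shared between Cyp4a12a and Cyp4a12b. The shared part was 17.9% for Cyp4a10, 13.8% for Cyp4a31, 20.1% for Cyp4a32 and 0 for Cyp4a14. How the authors' counting treated reads that fit several genes is not given in the sources used here. Values of single genes within the group Cyp4a10, Cyp4a31 and Cyp4a32, and within the pair Cyp4a12a and Cyp4a12b, are therefore uncertain, and sums are given as well. Cyp4a14 is the member whose coding sequence separates it from the rest.

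A stretch all members keep nearly unchanged surrounds the cysteine codon whose product holds the heme iron, the reactive centre of every P450. It is printed with that codon in capitals for 3 members, 1 from each group.
Cyp4a10: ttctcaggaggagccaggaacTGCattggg
Cyp4a14: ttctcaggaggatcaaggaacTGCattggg
Cyp4a12a: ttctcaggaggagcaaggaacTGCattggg
Cyp4a31 and Cyp4a32 had the letters of Cyp4a10 here, and Cyp4a12b those of Cyp4a12a. The codon is number 456 in Cyp4a10, Cyp4a31 and Cyp4a32, 454 in Cyp4a14 and 455 in the Cyp4a12 pair.

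Total counts ran from 14224665 to 19626662 per library; control male 4 was the shallowest and had the smallest number of detected genes (18232). Levels below are CPM, counts scaled to library size with TMM factors over all 23 libraries. The targeted gene was checked first: Cpt1a was 357 ± 50.4 CPM (SD, n = 5) in control males and 63.1 ± 20.3 CPM (SD, n = 6) in LKO males, and 388 ± 59.2 against 75.9 ± 8.88 CPM in control and LKO females (SD, n = 6 each). No LKO library overlapped the controls of its sex (two-sided exact permutation p = 0.00433 in males and 0.00216 in females, the smallest these designs give). Hepatocyte markers (Alb, Ttr, Apoa1, Cps1, Fgb and Cyp2e1) summed to 54884 to 106997 CPM per library, and cholangiocyte markers to at most 10.1 CPM. In bulk tissue, fewer cells of a type and less RNA per cell cannot be told apart.

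In male livers the most abundant members were Cyp4a12a, at 88.5 ± 13.03 FPKM in controls (deposited values scaled to gene length and depth; SD, n = 5), and Cyp4a10, at 82.9 ± 21.2. Cyp4a14 followed at 46.5 ± 17.3 FPKM, Cyp4a12b at 37.9 ± 7.10, Cyp4a32 at 14.3 ± 1.67 and Cyp4a31 at 1.66 ± 0.716. The ranges of Cyp4a12a (72.8 to 108 FPKM) and Cyp4a10 (54.4 to 111 FPKM) overlapped, as did those of Cyp4a14 (16.4 to 58.5) and Cyp4a12b (26.9 to 45.3). In control females the order was different. Cyp4a14 led with 282 ± 123 FPKM (SD, n = 6), Cyp4a10 had 201 ± 78.8, Cyp4a32 16.0 ± 4.48 and Cyp4a31 3.31 ± 1.37, whereas Cyp4a12a had 0.538 ± 0.251 and Cyp4a12b 0.184 ± 0.163. The ranges of Cyp4a14 (127 to 405 FPKM) and Cyp4a10 (106 to 306 FPKM) overlapped in control females, but Cyp4a14 was above Cyp4a10 within each of these libraries. By mean FPKM, Cyp4a14 was gene 197 of 24940 in control females and 137 in LKO females, and Cyp4a10 was 277 and 178. Cyp4a12a was gene 635 of 24434 in control males and 11871 in control females.

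**Figure D1:**
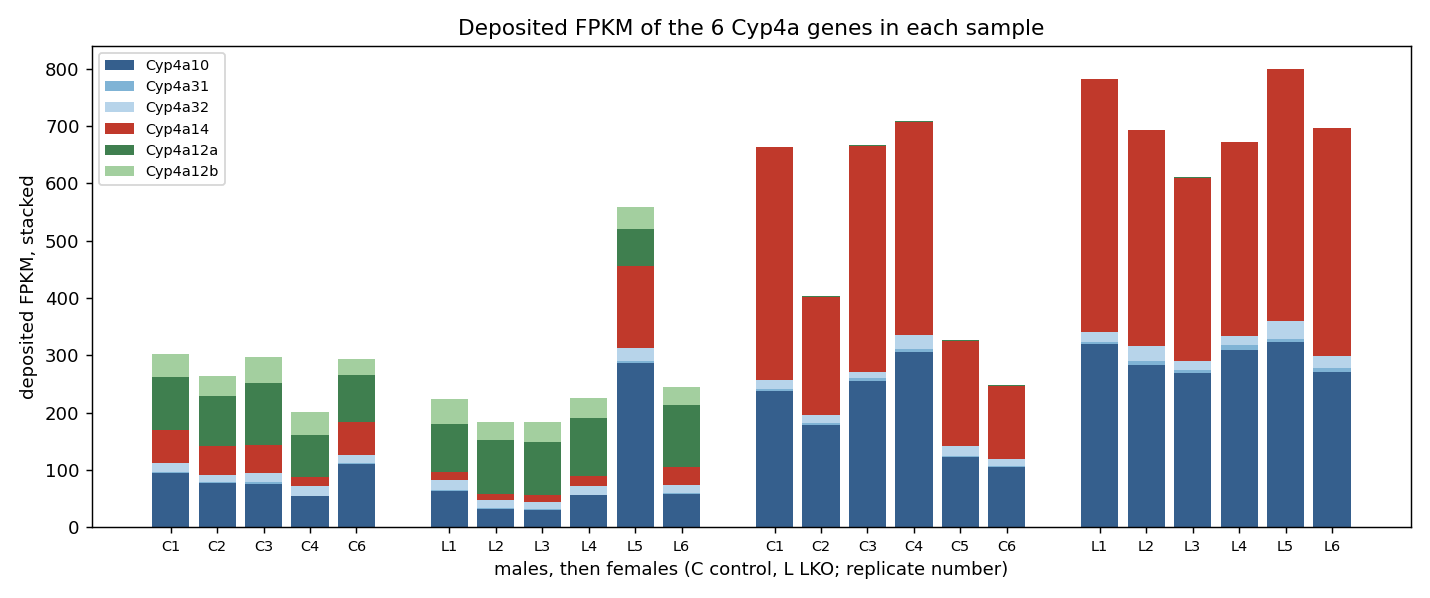
Deposited FPKM of the 6 genes stacked in each of the 23 libraries (C control, L LKO; number, replicate). Cyp4a14 (red) and Cyp4a10 (dark blue) make nearly the whole bar in females, and the Cyp4a12 pair (green) is visible in males only; LKO male 5 has the tallest male bar, at 558 FPKM.

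As a share of the FPKM of the 6 genes, Cyp4a12a and Cyp4a12b averaged 32.8% and 14.3% in control males, and 0.118% and 0.0364% in control females. Cyp4a14 averaged 16.6% in control males and 55.3% in control females, with no overlap between the shares (8.14 to 19.97% and 51.02 to 61.01%). Cyp4a10 held 30.3% and 40.3%.

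The first comparison set control females against control males. Both Cyp4a12 genes were far lower in females, Cyp4a14 and Cyp4a10 were higher, and Cyp4a31 and Cyp4a32 were not called. A gene was called at a Benjamini-Hochberg adjusted p under 0.05 over all genes tested, in edgeR's quasi-likelihood test. In this comparison 18% of the 13699 genes tested were called, 8.8% as higher and 9.2% as lower in females, and among the members 2 of 6 were called in each direction. Each sex has a table of its own, and effects of how each table was made cannot be told apart from sex.

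Cyp4a12a, the male-biased omega-hydroxylase, had 224, 215, 262, 176 and 198 CPM in control males 1, 2, 3, 4 and 6. In control females it ran from 0.480 to 2.10 CPM with a median of 1.37, or 7 to 33 counts. No female came near a male. The log2 difference was -7.33 (SE 0.264, adjusted p = 1.24e-09, edgeR). Cyp4a12b, its near copy, had 98.3, 85.2, 109, 97.9 and 64.3 CPM in the same control males, and 0 to 1.08 CPM in control females (median 0.39; 0 to 17 counts). Its log2 difference was -7.62 (SE 0.347, adjusted p = 1.52e-08, edgeR). LKO livers showed the same separation in level, with 157 to 266 CPM of Cyp4a12a in males and 0.446 to 2.94 CPM in females.

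Cyp4a14, a fatty acid omega-hydroxylase gene known for strong induction by PPAR-alpha ligands, had 151, 132, 129, 42.6 and 152 CPM in control males 1, 2, 3, 4 and 6. Control females had 333 to 1062 CPM with a median of 760.5. The lowest female was above the highest male. edgeR estimated a log2 difference of 2.60 (SE 0.375, adjusted p = 0.000673, edgeR), a fold of 6.07. Cyp4a10, which shares that inducer, had 202, 166, 161, 114 and 233 CPM in control males and 224 to 649 CPM in control females (median 445). Here the groups overlapped slightly, since control female 6 (224 CPM) was below control male 6 (233 CPM). The fitted log2 difference was 1.29 (SE 0.27, adjusted p = 0.00657, edgeR).

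Cyp4a31 was the scarcest member in males, with 2.47 to 7.14 CPM in control males and 3.88 to 12.8 CPM in control females. Its log2 difference of 1.001 (SE 0.332) just missed the threshold in edgeR (adjusted p = 0.0527; range over the alternatives 0.018 to 0.111). DESeq2 called it (adjusted p = 0.018), and so did edgeR with the replicate block (0.0495) and edgeR without control male 3 (0.0236), control female 5 (0.0265) or control female 6 (0.0369). Cyp4a32 had 18.4 to 24.7 CPM in control males and 18.02 to 37.3 CPM in control females, a log2 difference of 0.17 (SE 0.163, adjusted p = 0.502, edgeR). The male and female CPM ranges did not overlap for 3 of the 6 members, Cyp4a14, Cyp4a12a and Cyp4a12b, against 10.3% of all genes tested. In this comparison the 6 members thus held differences of opposite sign, from Cyp4a14 to the Cyp4a12 pair.

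**Figure D2:**
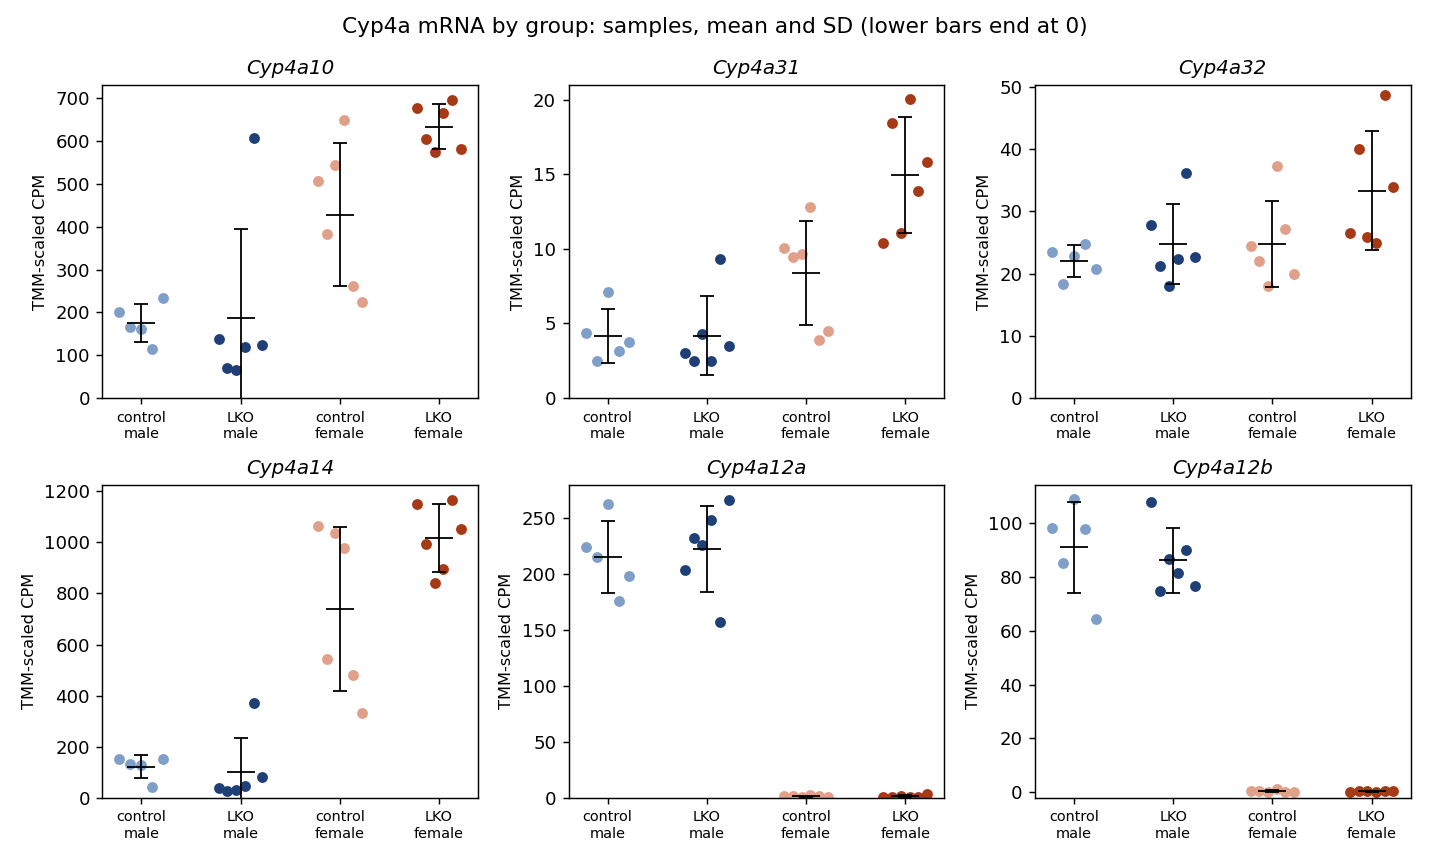
TMM-scaled CPM of each member in every library, by group, with the mean and the SD as bars (lower bars end at 0; each panel has its own linear axis). The Cyp4a12 pair is near 0 in all females, LKO females sit at 574 to 696 CPM for Cyp4a10, and LKO male 5 lies far above the other LKO males for Cyp4a10, Cyp4a14 and Cyp4a31.

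Ordered by mean CPM, Cyp4a10, Cyp4a14, Cyp4a31 and Cyp4a32 were all highest in LKO females, then in control females, then in males. Neighbouring groups in that order overlapped in range for these genes, except control females and control males for Cyp4a14. For Cyp4a12a and Cyp4a12b the order was males before females, with a gap between the sexes and overlap within each sex.

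The second comparison, LKO against control in females, asks how the omega-hydroxylases stand after hepatic ablation of CPT1a. The mean levels of Cyp4a10, Cyp4a14, Cyp4a31 and Cyp4a32 were higher in LKO females than in controls, but no member passed edgeR's test over all genes. Of the 13684 genes tested, 1.42% were called, and 0 of the 5 members tested; DESeq2 called 3.64% of its genes, among them Cyp4a31. Without adjustment, Cyp4a10, Cyp4a31 and Cyp4a32 had p under 0.05, as had 15.6% of all genes tested.

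Cyp4a31 had the highest log2 difference of the members. Control females had 3.88 to 12.8 CPM (median 9.55) and LKO females 10.4 to 20.1 CPM (median 14.9). Control females 5 and 6 were the low ones, at 3.88 and 4.51 CPM, and control female 4, at 12.8, reached into the LKO range. The log2 difference was 0.83 (SE 0.256), with an adjusted p of 0.125 in edgeR and 0.0427 in DESeq2. In the authors' deposited table it is 0.83 with an adjusted p of 0.0427. Cyp4a31 rests on 58 to 409 counts per female library, and its close copy Cyp4a10 on 3427 to 13576.

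Cyp4a10 ran from 224 to 649 CPM in control females (median 445) and from 574 to 696 CPM in LKO females (median 636). Every LKO female lay above all controls except control female 4. edgeR estimated a log2 difference of 0.56 (SE 0.212, adjusted p = 0.211, edgeR; 0.0861 to 0.552 over the alternatives). LKO females were also closer together, with an SD of 8.34% of the mean against 39.1% in controls; that difference in spread was not tested.

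Cyp4a14 ran from 333 to 1062 CPM in control females (median 760.5) and from 840.0 to 1166 CPM in LKO females (median 1023). Control females 1, 3 and 4 lay within the LKO range, and control females 2, 5 and 6 below it. The fitted log2 difference was 0.46 (SE 0.244, adjusted p = 0.385, edgeR). Cyp4a32 had 18.02 to 37.3 CPM in controls and 24.9 to 48.8 CPM in LKO females, a log2 difference of 0.42 (SE 0.191, adjusted p = 0.301, edgeR).

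Cyp4a12a had 7 to 33 counts in control females and 7 to 57 in LKO females, and its log2 difference was -0.16 (SE 0.428, adjusted p = 0.905, edgeR). Cyp4a12b, with 0 to 17 counts, did not pass the filter on low counts in females and was not tested there. No member's CPM ranges were apart in females, where 1.58% of all genes had ranges that did not overlap. Summed over Cyp4a10, Cyp4a31 and Cyp4a32, which reduces the effect of reads assigned to the wrong copy, the LKO to control ratio in females was 0.56 on the log2 scale, and 0.44 to 0.72 with any 1 library left out. The sum of all 6 members was 1202 ± 486 CPM in control females and 1700 ± 173 CPM in LKO females (SD, n = 6 each).

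Markers of lipid-associated macrophages moved with genotype in these females: 4 of 5 were called higher in LKO livers, against 1.42% of all genes tested. Their sum was 59.0 to 85.6 CPM in control females and 87.3 to 149 CPM in LKO females. In males 0 of these 5 were called, where 0.00724% of all genes were called. Hepatocyte markers summed to 87975 to 106997 CPM in control females and 64628 to 98647 CPM in LKO females, with 0 of 6 called. The part of either in the Cyp4a values was not tested.

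The third comparison, LKO against control in males, gave no called member either. In males 0.00724% of the 13805 genes tested were called, which is Cpt1a alone, and 0 of 6 members. No member had an unadjusted p under 0.05, against 12.5% of all genes. The CPM ranges of the groups overlapped for every member, and 1.74% of all genes had ranges apart.

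LKO male 5 stood apart in 3 members. For Cyp4a14, controls had 151, 132, 129, 42.6 and 152 CPM, and LKO males 1 to 6 had 37.3, 27.2, 32.3, 46.2, 372 and 80.0 CPM. LKO males other than replicate 5 were thus below every control but control male 4, while replicate 5 was above all males. The log2 difference was -0.30 (SE 0.634, adjusted p = 0.894, edgeR). Without LKO male 5 it was -1.45 (adjusted p = 0.323), which is still not called. DESeq2 gave no adjusted p for Cyp4a14 and Cyp4a31 in males, and the authors' deposited table lists no p-value for Cyp4a14.

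For Cyp4a10, LKO males had 137, 69.0, 65.6, 119, 606 and 123 CPM, against 114 to 233 CPM in controls. Again replicate 5 was highest, at a level inside the range of LKO females. edgeR estimated a log2 difference of 0.08 (SE 0.503, adjusted p = 0.966, edgeR), and -0.77 (adjusted p = 0.351) without LKO male 5, so single libraries set the sign (-0.04 without control male 4). For Cyp4a31, LKO male 5 had 9.35 CPM and the other LKO males 2.46 to 4.30, with controls at 2.47 to 7.14. Its log2 difference was -0.01 (SE 0.368, adjusted p = 0.996, edgeR). The Cpt1a level of LKO male 5, 77.9 CPM, lay within the range of the other LKO males (41.8 to 95.9 CPM). That library's total of 15856984 counts was near those of the other LKO males (15370271 to 16689307), and its summed hepatocyte markers were inside the LKO range of 54884 to 78971.

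Cyp4a32 had 18.4 to 24.7 CPM in control males and 17.997 to 36.2 CPM in LKO males, with replicate 5 highest. Its log2 difference was 0.16 (SE 0.155, adjusted p = 0.723, edgeR). Cyp4a12a went the other way in LKO male 5, which had the lowest Cyp4a12a of all males, 157 CPM. The groups were level for this gene: control males had 215 ± 32.1 CPM (SD, n = 5) and LKO males 222 ± 38.2 CPM (SD, n = 6), with a log2 difference of 0.04 (SE 0.137, adjusted p = 0.934, edgeR). Cyp4a12b had 90.9 ± 17.05 CPM in controls and 86.2 ± 12.1 CPM in LKO males, with a log2 difference of -0.08 (SE 0.133, adjusted p = 0.867, edgeR). The Cyp4a12 pair together had a log2 ratio of 0.01, which ran from -0.04 to 0.09 with any 1 library left out. For Cyp4a10, Cyp4a31 and Cyp4a32 together the ratio was 0.10, and -0.65 without LKO male 5.

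**Figure D3:**
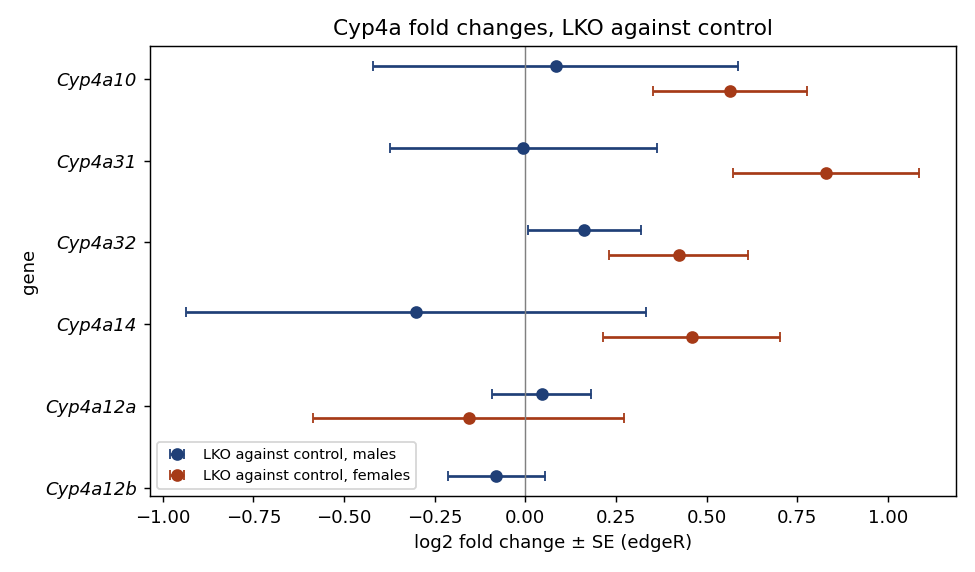
Log2 fold change of LKO against control with its standard error, in males (blue) and females (red); Cyp4a12b was not tested in females. The error bar of Cyp4a14 in males (SE 0.634) is the widest, and no value was called.

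A direct test of whether genotype effects differed by sex called no gene (0.0% of 14503; 1874 genes had an unadjusted p under 0.05, and DESeq2 called 72), and so none of the 6 members. The female effect minus the male effect was 0.83 for Cyp4a31 (SE 0.47, adjusted p = 0.465), 0.75 for Cyp4a14 (SE 0.711, adjusted p = 0.688) and 0.47 for Cyp4a10 (SE 0.571, adjusted p = 0.771), all on the log2 scale in edgeR. Without LKO male 5 the difference was 1.91 for Cyp4a14 (adjusted p = 0.173) and 1.34 for Cyp4a10 (adjusted p = 0.173). With both LKO male 5 and control male 4 left out, Cyp4a14 was called (2.11, adjusted p = 0.0391). These libraries were chosen on the members' own values, so that call supports nothing. Cyp4a32 and Cyp4a12a had differences of 0.26 and -0.20, neither of them called. For Cyp4a12b, which had 0 to 17 counts in each female library, no difference between the sexes' effects is read.

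Some members moved together from liver to liver within a group. Each library's log2(CPM + 0.5) was taken as its deviation from the mean of its group, over 23 libraries, and the 15 pairs of members were compared with permutations within groups. Cyp4a10 and Cyp4a14 gave a Pearson r of 0.928 and a Spearman rho of 0.851 (permutation p = 1e-05, the smallest that 100000 resamples give, and 8e-05; adjusted over the pairs 0.00015 and 0.0012). With the libraries farthest from the median left out, LKO males 3 and 5, r was 0.835. Their coding sequences share no stretch of 100 bases. Cyp4a31 followed Cyp4a10 with r = 0.678 (rho 0.586; permutation p = 0.00557 and 0.00932; adjusted 0.0236 and 0.0452), and r was 0.613 with LKO males 3 and 5 left out and 0.482 without LKO male 5 alone. With Cyp4a14, Cyp4a31 had r = 0.661 (rho 0.578; adjusted permutation p = 0.0236 and 0.0452), and 0.46 without the farthest libraries, LKO male 5 and control male 4. Of the 5 pairs with an adjusted p under 0.05 for r, the others were Cyp4a12b with Cyp4a32 and with Cyp4a12a; 12 of their 23 points are female libraries with 0 to 17 Cyp4a12b counts, and nothing is read from them. Between Cyp4a10 and Cyp4a12a r was -0.146 (rho -0.182; adjusted permutation p = 0.577 and 0.584).

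**Figure D4:**
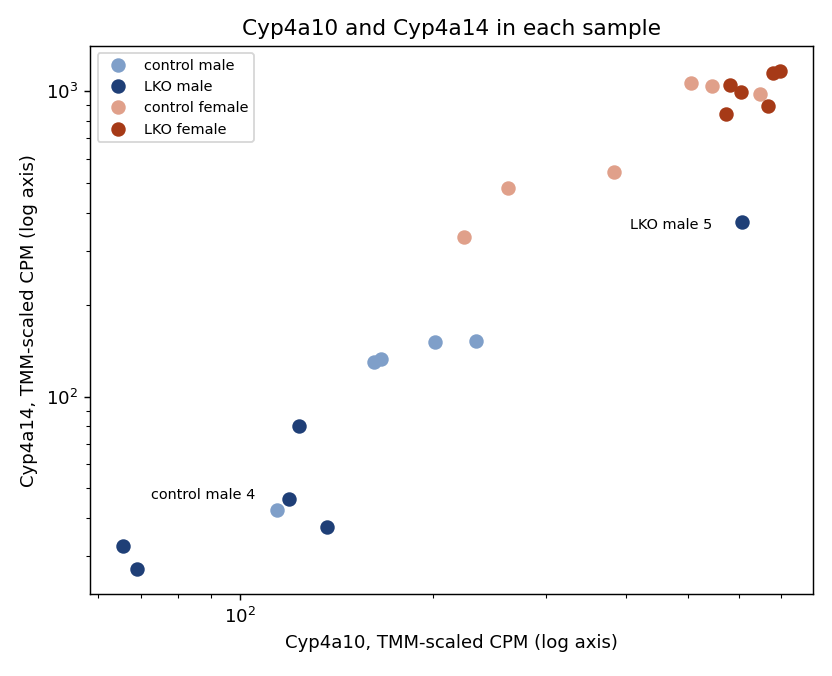
Cyp4a10 against Cyp4a14 in every library, both as TMM-scaled CPM on log axes, coloured by group. LKO male 5, at 606 and 372 CPM, lies apart from the other males; control male 4, at 114 and 42.6 CPM, lies among the other LKO males.

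The genes outside the family with the pattern most like Cyp4a10, among 10606 with a mean of at least 50 counts over the 23 libraries, were Nr1i3 (r = 0.802), Ech1 (r = 0.799) and Ehhadh (r = 0.799). Nr1i3 encodes the nuclear receptor CAR, Ech1 an auxiliary enzyme of fatty acid oxidation and Ehhadh the bifunctional enzyme of peroxisomal oxidation. Without LKO male 5 these values were 0.587, 0.757 and 0.580. For Cyp4a14 they were Agpat3 (0.799), an acyltransferase of phospholipid synthesis, Acadl (0.778), a mitochondrial acyl-CoA dehydrogenase, and Abcb4 (0.776), the phospholipid exporter of the bile canaliculus. For Cyp4a12a they were Yars (0.819), Cyb561 (0.776) and Ankrd52 (0.753). Cyp4a12a had only 7 to 57 counts in each female library, so nothing is read from its list. These are descriptions over libraries that share depth and scaling.

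The partners of omega-hydroxylation were a list of 26 genes for electron transfer, dehydrogenases and peroxisomal shortening. Of these, 0 were called in males and 0 in females, where 0.00724% and 1.42% of all genes were called. In edgeR, 5 of the 26 had an unadjusted p under 0.05 in males (12.5% of all genes) and 13 in females (15.6%). The median log2 difference of the 26 was 0.10 in males (all genes 0.01) and 0.25 in females (all genes 0.01). The lowest p in females was that of Crat, carnitine acetyltransferase, which stood at 91.4 ± 34.0 CPM in control and 167 ± 20.5 CPM in LKO females (SD, n = 6 each), a log2 difference of 0.87 (SE 0.217, adjusted p = 0.062, edgeR). In males it was Adh1, an alcohol dehydrogenase, at -0.37 (SE 0.124, adjusted p = 0.284, edgeR). Between control females and males, 5 of the 26 were called higher in females and 3 lower, against 8.8% and 9.2% of all genes. Por, which feeds electrons to the P450s, was among the higher ones at 1.15 (SE 0.188, adjusted p = 0.00147, edgeR), as were the thioesterase genes Acot3 at 3.81 (SE 0.589, adjusted p = 0.00104) and Acot4 at 1.67 (SE 0.306, adjusted p = 0.00305). Scp2, which encodes a peroxisomal thiolase and sterol carrier, was lower, at -0.69 (SE 0.112, adjusted p = 0.0014, edgeR).

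PPAR-alpha (Ppara) and its targets, a list of 30 genes without the Cyp4a members, had 0 called genes in males and 1 in females. The shares of all genes called were 0.00724% and 1.42%. In edgeR, 4 of the 30 had an unadjusted p under 0.05 in males (12.5% of all genes) and 17 in females (15.6%). Acot2, a mitochondrial thioesterase, rose in LKO females from 18.8 ± 9.43 to 49.6 ± 17.3 CPM (SD, n = 6 each), log2 difference 1.39 (SE 0.309, adjusted p = 0.0384, edgeR); without control female 5 or without control female 6, checks added after the values were seen, no gene of the list was called. In females 28 of the 30 had a log2 difference above 0, with a median of 0.26 (all genes 0.01). In males 17 were above 0 with a median of 0.03 (all genes 0.01), and 11 without LKO male 5, with a median of -0.04. Ppara itself differed by 0.12 in males (SE 0.162, adjusted p = 0.824) and 0.02 in females (SE 0.135, adjusted p = 0.957, edgeR). Between control females and males, 8.8% of all genes tested were called higher in females and 9.2% lower. Of the 30, 0 were called higher and 3 lower, with a median of -0.09 (all genes 0.00443). The 3 were Plin2, which coats lipid droplets, at -0.95 (SE 0.211, adjusted p = 0.00855), Fgf21, a hormone made by the liver, at -1.66 (SE 0.463, adjusted p = 0.0257), and Fabp1, a fatty acid binding protein, at -0.61 (SE 0.182, adjusted p = 0.0339, edgeR). Without control male 4, 4 were called lower. Cyp4a10 and Cyp4a14 were called higher in females, as were 5 of the 26 partner genes above, which were kept in a list of their own. No contrast between the Cyp4a members and PPAR-alpha targets is therefore read. In the test of whether the genotype effect differed by sex, 0 of 30 were called. The lowest p there was that of Fgf21, at 2.71 (SE 0.695, adjusted p = 0.164, edgeR).

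Some libraries that were extreme for members within their group or sex were often extreme for this list too. LKO male 5 had the highest male value for 17 of the 30 genes, against 8.64% of all genes, and for 4 of the 6 members. Control male 4, the control low in Cyp4a14, had the lowest male value for 16 of the 30, against 17.3% of all genes, and for 0 of the 6 members. Among females, control female 6 had the lowest value for 18 of the 30 (9.92% of all genes) and control female 5 for 7 (9.01%), and these were the controls lowest in Cyp4a10, Cyp4a14 and Cyp4a31. LKO males 2 and 3 were each lowest among males for 2 of the 6 members. LKO male 2 was lowest for 7 of the 30 (6.19% of all genes), and LKO male 3 for 1 (10.3%). Other lists showed the same for LKO male 5, control male 4 and control females 5 and 6. LKO male 5 was highest for 10 of the 26 partner genes of omega-hydroxylation, and control male 4 was lowest for 12 of those 26. Control females 5 and 6 were each lowest among females for 7 of those 26. Control male 4 was also highest for 10 of 12 male-biased genes (15.7% of all genes) and lowest for 5 of 6 female-biased genes. No label sets these animals apart, and the reason was not tested.

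**Figure D5:**
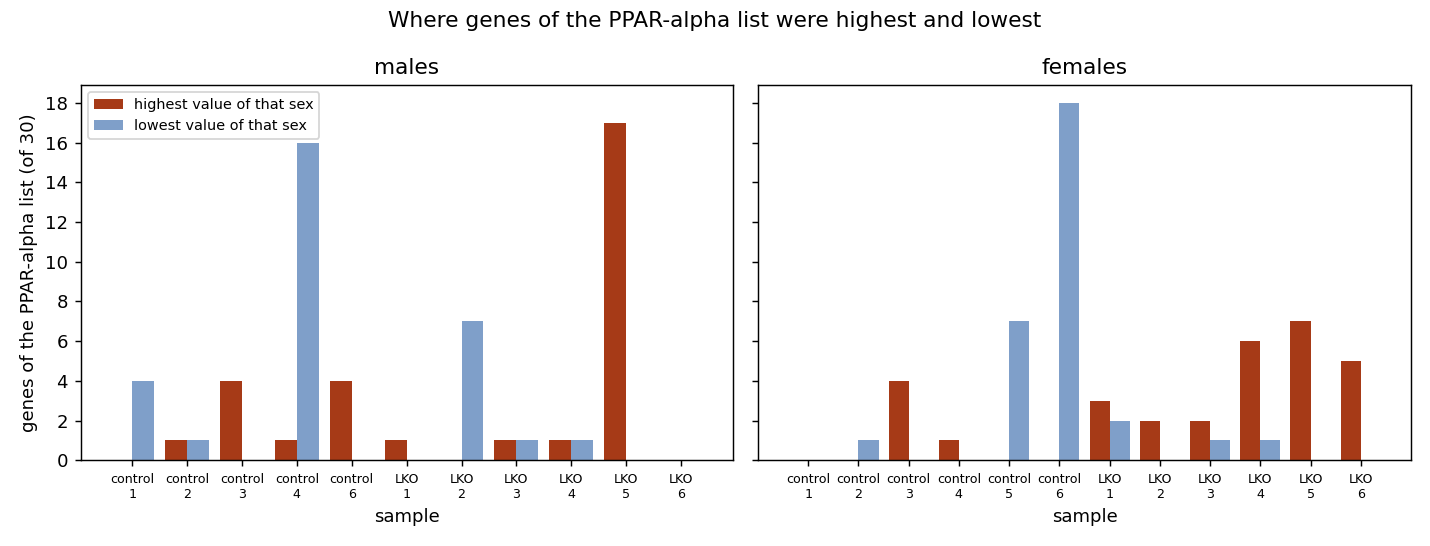
Number of genes of the 30-gene PPAR-alpha list whose highest (red) or lowest (blue) value among males or among females fell in each library. LKO male 5 holds 17 of the highest values, control male 4 holds 16 of the lowest, and control female 6 holds 18 of the lowest female values.

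Known sex-biased liver genes gave a frame for the Cyp4a12 pair. All 12 genes of a male-biased list, chosen without the members, were called lower in control females, with a median log2 difference of -3.37. In this comparison 9.2% of all genes tested were called lower in females and 8.8% higher. Mup20, a major urinary protein, differed by -5.31 (SE 0.323, adjusted p = 4.43e-07), Elovl3, a fatty acid elongase, by -5.32 (SE 0.577, adjusted p = 7.74e-05) and Cyp2d9 by -4.04 (SE 0.322, adjusted p = 5.83e-06, edgeR). Control male 4 held the highest male value for 10 of these 12 genes. Its Elovl3 stood at 567 CPM, against 103 to 142 CPM in the other 4 control males. Without it, a check added after the values were seen, 11 of the 12 were called, the median was -2.33 and Elovl3 differed by -4.57 (SE 0.374, adjusted p = 6.3e-06, edgeR). Cyp4a12a and Cyp4a12b, at -7.33 and -7.62, had larger differences than the 3 genes named, and were at -7.40 and -7.59 without control male 4. Of 12 female-biased genes tested, 11 were called higher in females, with a median of 6.80; among them Cux2, a repressor of male-biased genes, differed by 7.47 (SE 0.544, adjusted p = 2.2e-06, edgeR). Cyp4a14 (2.60) and Cyp4a10 (1.29) had smaller differences than Cux2. With LKO, 2 male-biased genes were called in females, while Cyp4a12a was not called. Hsd3b5 fell, at -4.28 (SE 0.716, adjusted p = 0.00941, edgeR). It was near 0 in females, at 3.27 ± 3.08 CPM (mean and SD) in controls and 0 to 0.239 CPM in LKO, so the size of its fall is uncertain. Gstp1 rose, at 0.56 (SE 0.132, adjusted p = 0.0496, edgeR). None of the 13 regulators of sex-biased genes, such as Stat5a and Prlr, was called in LKO of either sex. With LKO, the shares of all genes called were 0.00724% in males and 1.42% in females.

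Neither the wider Cyp4 family nor the neighbouring genes were called with LKO. Of 8 other Cyp4 genes tested, 0 were called in either sex, where 0.00724% of all genes were called in males and 1.42% in females. Cyp4f14, a leukotriene omega-hydroxylase gene, had the lowest p in females, at 236 ± 67.9 CPM in control and 167 ± 35.2 CPM in LKO females (SD, n = 6 each), with a log2 difference of -0.50 (SE 0.188, adjusted p = 0.211, edgeR). Between control females and males, where 18% of all genes tested were called, Cyp4f17 was the 1 of the 8 called, at -0.69 (SE 0.121, adjusted p = 0.00236, edgeR). Within 500 kb of the Cyp4a cluster, 27 other genes were listed and 13 tested. None of these was called with LKO in males or females. Between control females and males 1 of the 13 was called, against 18% of all genes tested. It was Cmpk1 (-0.36, SE 0.0872, adjusted p = 0.0132, edgeR).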

How the data were processed

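Liver mRNA libraries were made with poly-T beads, random hexamers and dUTP, per the labels' protocols. Reads were aligned with HISAT2 2.0.5 to mm39, per the submitters' processing notes; the counter, the annotation and the use of strand are not given in the sources used here. The authors deposited, per sex, raw counts, FPKM and a normalized count signal (not used here), and a log2 fold change with its p-value and adjusted p-value. Here counts were tested with edgeR 4.0.16 in R 4.3.3 (filterByExpr, TMM, quasi-likelihood test, Benjamini-Hochberg over all genes), each sex alone, all 23 libraries for the interaction, and controls alone for sex. The script was tested on simulated data. Alternatives were RLE factors, library size alone, 2 other filters, DESeq2 1.42.0, limma 3.58.1 trend on log2(FPKM + 1) and log2(FPKM + 0.1), a replicate block, 1 fit of all 23 libraries and leaving out each library. Named genes are the members, Cpt1a, the 3 genes most like 1 member of each paralog group, the called genes of each list (at most 4 with the lowest p, otherwise the lowest p) and called neighbours. Ppara, Stat5a and Prlr were added to the text after their values were seen, though Stat5a and Prlr also meet this rule. Members and lists were chosen with earlier results of these data known. One gene that the naming rule takes is not reported here.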

Additional observations from a re-analysis of the deposited data

Results flagged for a closer look

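Within each group of 5 or 6 libraries, the highest and the lowest value of every member and of Cpt1a were compared with the rest by Dixon's ratio at its 95% level, in 28 groups; chance flags about 1 in 20 groups. LKO male 5 lay apart from the other LKO males for Cyp4a10 (606 CPM; next highest 137), Cyp4a14 (372 CPM; next 80.0) and Cyp4a31 (9.35 CPM; next 4.30). Control male 4 lay apart from the other controls for Cyp4a14 (42.6 CPM; next lowest 129). LKO female 6 lay apart for Cyp4a12a (2.94 CPM; next highest 1.19), which rests on 57 counts.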

How the results depend on the processing

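No called member lost its call in any fit that tested it. Called members were 1 with DESeq2 in females, 2 between controls with at least 10 counts in every library (the Cyp4a12 pair then untested), and 1 for the interaction with both LKO male 5 and control male 4 left out, an alternative chosen after the data were seen. Cyp4a10 in males was -0.36 with log2(FPKM + 1) and log2(FPKM + 0.1), -0.80 with the replicate block, -0.90 without both, and -0.77 (without LKO male 5) to 0.27 with 1 library left out. Cyp4a31 in males was 0.0312 with library size alone and -0.41 (without LKO male 5) to 0.29 with 1 left out. Cyp4a12a with 1 left out was -0.0216 to 0.14 in males and -0.68 to 0.0191 in females. Cyp4a12b was -0.18 to 0.00379 in males with 1 left out, and its interaction was 0.0328 and 0.00986 with FPKM and -0.53 to 0.17 with 1 left out. Genes called in all were 1 in males (107 with DESeq2; 2 to 5 in 6 other fits), 194 in females (554 DESeq2, 334 replicate block, 94 in 1 fit, 87 to 116 without some libraries), 0 for the interaction (72 DESeq2, 17 without control male 4, 20 without both) and 2466 between controls (991 block). The labels do not say whether replicate numbers pair the mice. Correlations of same-number libraries were -0.347 to 0.404 in males (5 pairs) and -0.0076 to 0.165 in females (6 pairs), too few pairs to decide this. LKO male 5 has no partner in the block. Depth limits the Cyp4a12 pair in females.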
